A study of Mus musculus with 4 samples.

Results

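Chromatin accessibility outside promoters, introns and intergenic DNA was examined in LβT2b cells. The regions described were those strongly open in every library whose strongest peak lay in an exon or at the annotated end of a gene. The labels name this established mouse line both LbT2 and LβT2b, and give its cell type as gonadotrope, the pituitary cell that makes the gonadotropins. Cells were kept overnight without serum and then given vehicle or activin A at 1 nM for 6 h, with 2 libraries per treatment. Activin A is a ligand of the TGF-beta family that acts on gonadotropes, and the series concerns enhancers of the follicle-stimulating hormone β subunit gene. ATAC-seq was used, in which a transposase cuts open DNA and leaves sequencing adapters there. The labels do not say whether the libraries of a treatment came from separate cultures, so p-values measure only the spread between these libraries, which may be technical.

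A peak was called strong when the −log10 of its q-value in the authors' list was at least 5. Strong peaks of the 4 libraries were joined where they overlapped by at least 1 bp, which gave 21240 regions. Of these, 10390 held a strong peak in every library. In 1273 of the 10390 regions (12.3%) the peak with the highest −log10 q was annotated by the authors as exon or as TTS, the transcription termination site, and these are the members. Promoters took 6042 of the regions, introns 1681 and intergenic DNA 1394. Members were thus chosen by the −log10 q and the annotation of their peaks, and their −log10 q, fold enrichment and annotation are given as descriptions only. Members comprised 898 first-exon regions, 124 regions in a later exon and 251 gene-end regions. They lay on autosomes in 1230 cases, on X in 42 and on Y in 1.

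Broadly, the first exon of a gene begins at its start site and often shares the open, nucleosome-poor stretch of the promoter. Later exons and the 3′ ends of genes are usually transcribed through and covered with nucleosomes. Open DNA there can mark an internal start site, an enhancer that happens to overlap an exon, or the start of a neighbouring gene. In mammals many promoters are CpG islands, stretches rich in G, C and the CpG dinucleotide, where factors of the SP and KLF families bind.

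The libraries held between 172146474 and 224226184 high-quality reads. Such reads are the autosomal alignments that the authors' quality report counts after leaving out duplicates and poor alignments. Members took 0.366% and 0.336% of them under vehicle, and 0.509% and 0.451% under activin. The same report gave start-site enrichments of 2.72 and 2.48 (vehicle) and 3.12 and 3.04 (activin), so the activin libraries stood higher in both measures. The part of this library quality in the density levels below was not tested. Of 11 gonadotrope marker genes, 5 had a strong region at their start in every library, Lhb, Cga, Gnrhr and Egr1 among them. Fshb, Nr5a1, Foxl2, Pitx1, Gata2 and Lhx3 had none. None of the 8 markers of other pituitary lineages and none of the 9 markers of blood, endothelial, stromal and glial cells had one.

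To show what such regions look like in sequence, the 200 bases before a RefSeq start site (assembly GRCm38.p6) are printed for 7 of them, 5′ to 3′ on the gene's strand. They come from the 2 highest-ranking members of each class, by lowest −log10 q, that held the outermost start of a named gene in the table, and from the best-ranked autosomal microRNA gene end. Capitals mark letters of GGGCGG, the core of SP and KLF sites, or of CCAAT, the NFY core, on either strand. Nr1d2 encodes the clock repressor REV-ERBβ (chr14:18239107-18239306, minus strand), and the other first-exon stretch belongs to Saysd1 (chr14:20083173-20083372, minus strand).

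Nr1d2: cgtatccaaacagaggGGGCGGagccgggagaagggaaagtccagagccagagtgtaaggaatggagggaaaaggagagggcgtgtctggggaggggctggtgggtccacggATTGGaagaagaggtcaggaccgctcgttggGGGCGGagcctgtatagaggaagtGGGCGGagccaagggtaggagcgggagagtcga

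Saysd1: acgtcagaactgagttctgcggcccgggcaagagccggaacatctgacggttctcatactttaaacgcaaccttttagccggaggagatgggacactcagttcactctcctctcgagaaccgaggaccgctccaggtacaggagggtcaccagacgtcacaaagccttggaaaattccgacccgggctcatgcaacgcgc

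Mcm9, a helicase-family protein of DNA repair (chr10:53629958-53630157, minus strand), and Gadd45a, a stress-response gene (chr6:67037408-67037607, minus strand), are later-exon members. In both the annotation names exon 2, yet the region also holds the gene's RefSeq start.

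Mcm9: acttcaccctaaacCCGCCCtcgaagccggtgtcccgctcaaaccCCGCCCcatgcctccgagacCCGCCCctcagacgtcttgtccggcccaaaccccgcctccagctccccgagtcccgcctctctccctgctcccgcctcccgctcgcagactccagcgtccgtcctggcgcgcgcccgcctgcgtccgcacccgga

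Gadd45a: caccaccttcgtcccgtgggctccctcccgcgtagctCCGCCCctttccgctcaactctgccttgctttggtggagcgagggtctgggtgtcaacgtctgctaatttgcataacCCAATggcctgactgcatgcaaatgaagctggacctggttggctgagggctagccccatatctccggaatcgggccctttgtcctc

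Get1, named Wrb in the authors' annotation, encodes a receptor for the insertion of tail-anchored proteins (chr16:96145200-96145399, plus strand). Zfp286os is a transcript antisense to a zinc finger gene by its name (chr11:62756620-62756819, plus strand). Gspt1 encodes a translation termination factor (chr16:11254326-11254525, minus strand). Their starts lie in gene-end members that were annotated to other genes, the predicted gene Gm15317, Zfp286it and the microRNA gene Mir1945.

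Get1: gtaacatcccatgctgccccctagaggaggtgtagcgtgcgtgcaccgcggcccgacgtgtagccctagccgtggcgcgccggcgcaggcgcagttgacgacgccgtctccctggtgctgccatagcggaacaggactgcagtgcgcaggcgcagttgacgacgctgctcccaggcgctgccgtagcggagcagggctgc

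Zfp286os: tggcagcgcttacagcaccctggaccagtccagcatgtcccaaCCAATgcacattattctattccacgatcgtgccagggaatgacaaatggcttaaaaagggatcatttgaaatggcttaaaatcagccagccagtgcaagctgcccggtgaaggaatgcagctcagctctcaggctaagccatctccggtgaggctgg

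Gspt1: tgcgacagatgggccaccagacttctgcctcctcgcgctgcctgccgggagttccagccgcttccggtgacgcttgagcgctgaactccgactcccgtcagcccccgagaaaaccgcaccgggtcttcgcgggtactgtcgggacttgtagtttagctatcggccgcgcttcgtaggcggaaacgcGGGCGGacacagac

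All 200 printed bases lay inside the member, except for Zfp286os, where 183 did. GC made up 62.0% of the Nr1d2 stretch, 56.5% for Saysd1, 72.5% for Mcm9, 59.5% for Gadd45a, 69.5% for Get1, 52.0% for Zfp286os and 65.0% for Gspt1. The Saysd1 and Get1 stretches held neither GGGCGG nor CCAAT, and that of Zfp286os held CCAAT alone.

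The mature microRNA of the last member lies within the printed Gspt1 stretch itself, on the same strand, from 77 to 56 bases before the Gspt1 start. A second microRNA, from Mir5133, lies 24 to 44 bases after the start of Glce, which encodes an epimerase of heparan sulfate synthesis. One more, from Mir8101, sits in a member that holds the start of Hdac5, a class II histone deacetylase. Their sequences follow with the seed, bases 2 to 8, in capitals. No seed was shared among them.

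miR-1945: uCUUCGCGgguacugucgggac

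miR-5133: gCUGGAGCugcggcagcgcag

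miR-8101: gGCGAGCGgagccggaggagcc

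First-exon regions lay just inside their genes. The centre of a first-exon region fell a median of 202 bp downstream of the nearest RefSeq start of its annotated gene (interquartile range 144 to 301 bp), in the 660 regions whose gene had such a start in the table. In 629 of the 660 (95.3%) the centre was downstream of the start, and in 541 (82.0%) it was 100 to 500 bp downstream. Promoter regions measured in the same way were centred on the start, with a median of −2 bp and an interquartile range of −124 to 91 bp. Both classes were set by the annotated position of the strongest peak. The offset between them thus follows from that choice and is only a description. A start site itself lay within 655 of 865 first-exon regions (75.7%) outside chromosome 18, which the start-site table does not cover. For promoter regions it was 82.9%.

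**Figure D1:**
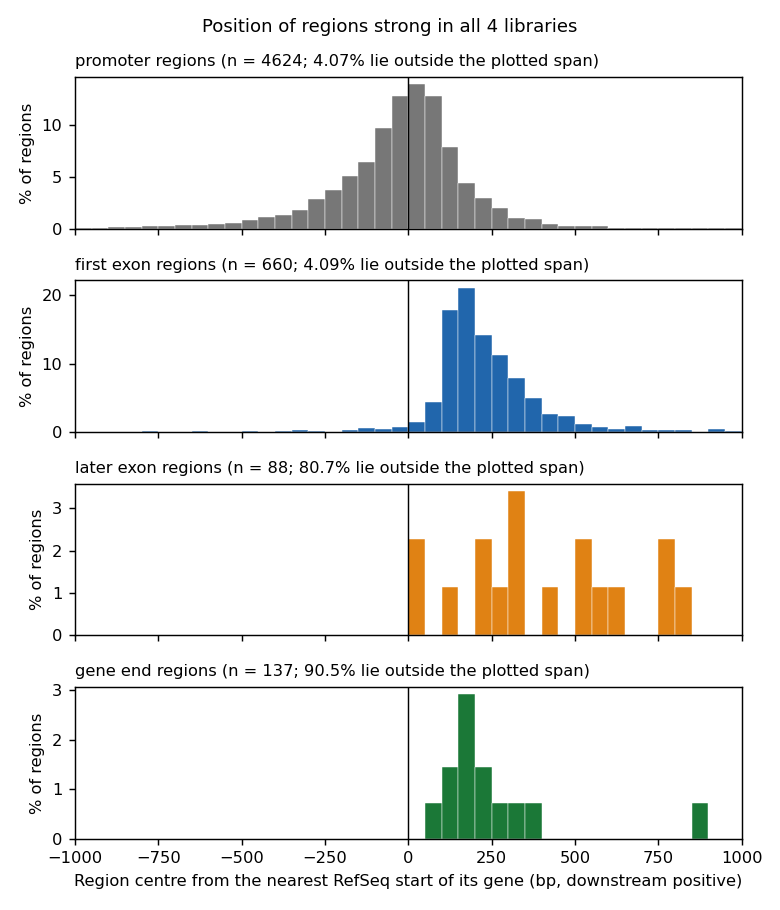
Percentage of regions in 50-bp bins of the distance from the region's centre to the nearest RefSeq start of its annotated gene, for promoter, first-exon, later-exon and gene-end regions strong in all 4 libraries. First-exon regions peak at 100 to 300 bp downstream of the start, promoter regions at the start, and most later-exon and gene-end regions lie outside the plotted span.

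The boundary between the first-exon class and promoters ran through single regions. In 349 of the 898 first-exon regions (38.9%) at least 1 library's own strong peak was annotated as promoter. It was 1 library in 162 regions, 2 in 115 and 3 in 72. Only 466 of the 898 were annotated as exon in every library. Which class such a region took thus depended on the library whose peak was strongest. Later-exon regions were annotated as promoter in at least 1 library in 10 of 124 cases (8.06%), and gene-end regions in 41 of 251 (16.3%).

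Later-exon and gene-end regions lay much farther from the starts of their own genes, again a description, since the annotation set these classes. The median distance from the annotated gene's RefSeq start was 8172 bp for later exons (n = 88 with a start in the table) and 11786 bp for gene ends (n = 137). Of these 225 regions, 158 lay more than 5 kb away. A start site of any gene lay in 23 of 118 later-exon regions (19.5%) and in 68 of 247 gene-end regions (27.5%) outside chromosome 18. In later exons it was the host's own start in 17 of the 23. In gene ends it was the host's own in only 12 of 68, and in 56 it belonged to other genes. Intron regions held a start in 30.7% and intergenic regions in 7.55%. Promoter regions lay within 5 kb of 2.78% of first-exon, 10.5% of later-exon and 7.97% of gene-end regions.

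The authors' distance to a start site, taken to any gene, also put first exons nearest among the 3 classes but missed many starts. By that distance 71.0% of first-exon, 17.7% of later-exon and 37.1% of gene-end regions were centred within 1 kb of a start. For promoter regions it was 73.9%, so the large distances were not particular to members. Outside chromosome 18, 192 of the first-exon regions beyond 1 kb (75.3%) nevertheless held a RefSeq start. Of later-exon and gene-end regions beyond 1 kb, 8 (8.33%) and 19 (12.3%) did. The 5 members farthest from a start by the authors' distance show the difference. Rorb, an orphan nuclear receptor gene, was placed 109813 bp from a start, the axonemal dynein gene Dnah11 102665 bp and the sorting receptor gene Sorl1 101386 bp. All 3 regions hold the RefSeq start of their own gene, 283, 268 and 296 bp from the region's centre. The other two were the last exon of the predicted gene Gm26905 (127064 bp) and the end of Sulf1, an extracellular heparan sulfate sulfatase (121426 bp), and neither holds a RefSeq start. After both measures, 63 first-exon, 88 later-exon and 136 gene-end regions outside chromosome 18 had no start site inside or within 1 kb.

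Letters around the starts inside members differed by class as well. RefSeq windows of 300 bases, 250 before to 50 after a start, had a median GC content of 62.7% in first-exon regions (744 windows), 58.0% in later-exon regions (29) and 60.2% in gene-end regions (78). It was 64.0% in promoter regions and 52.7% over all 32851 windows. The ratio of observed to expected CpG was 0.793, 0.612 and 0.725 in the 3 classes, 0.833 in promoters and 0.384 over all windows. GGGCGG occurred in 72.3% of first-exon, 48.3% of later-exon and 64.1% of gene-end windows, against 35.7% of all windows, with exact letters on either strand. CCAAT occurred in 36.7%, 44.8% and 30.8%, against 37.4%. The AP-1 letters TGANTCA stood in 3.90%, 13.8% and 5.13%, against 7.81%, and the ETS letters CCGGAAGT in 5.91%, 3.45% and 6.41%, against 3.89%. In promoter, intron and intergenic windows GGGCGG occurred in 74.5%, 70.7% and 47.2%, and CCAAT in 42.0%, 35.4% and 41.7%. There the AP-1 letters stood in 3.08%, 3.55% and 10.2%, and the ETS letters in 9.50%, 7.78% and 2.36%. The later-exon shares rest on 29 windows. Letters for CRE (TGACGTCA), SMAD (GTCTAGAC), SF1 (CAAGGTCA), PITX (TAATCC), and the longer ones searched for NRF1, YY1, CTCF and REST each occurred in at most 5.11% of the windows of any of the 3 classes. Shorter motifs can lie within longer ones, and windows of neighbouring starts overlap.

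Most host genes held 1 member, and in the exon classes most were protein coding. The 1273 members were annotated to 1258 genes, of which 14 held more than 1 member. Protein-coding genes hosted 865 of 898 first-exon and 110 of 124 later-exon regions. They hosted 171 of 251 gene ends, where 30 were annotated as microRNA genes, 16 lincRNA genes, 12 antisense genes and 7 snRNA genes. Of the 30, only 7 had a Mir name. Small RNA genes, which are short enough for the end to lie close to the start, made up 40 of the gene ends (15.9%). Of the first-exon regions, 89 were labelled exon 1 of 1. Of later-exon regions, 45 were labelled exon 2 and 69 the last exon. Such labels need not count every exon of a gene, since Itga6 held members labelled exon 1 of 26 and exon 2 of 2.

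D1Ertd622e, named Macir in RefSeq, was the only host with 3 members. They were its first exon (chr1:97660676-97662274) and separate regions in its last exon (chr1:97633727-97635104 and chr1:97627985-97629030), 27.6 and 33.5 kb from its start. Sptbn4, which encodes a spectrin of axon initial segments, held regions in exon 33 (chr7:27361219-27361946) and exon 14 (chr7:27408412-27409283) of 36 and no first-exon member. Cers6, a ceramide synthase gene, held a first-exon region (chr2:68861108-68862583) and a gene-end region (chr2:68934449-68935455), and so did H3f3b, which encodes the replacement histone H3.3. Smim13 had its first exon and its last exon.

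The lowest −log10 q over the libraries ranked the members within each class. Nr1d2 led the first exons with 65.3 (chr14:18238177-18239603), followed by Saysd1, Aco1, C030039L03Rik and Dstn, the gene of the actin-severing protein destrin, at 49.9. Just inside the threshold lay Prickle1 (5.03), Dennd5b (5.02) and Rufy1 (5.01), and just outside it Trim62, Gpr37 and Tyms, at 4.99, 4.97 and 4.97 in the library that missed it.

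Read density is given as the high-quality reads in a library's strong peak, divided by the peak's length in kb and by that library's high-quality reads in units of 1000000. Values of 4 libraries are listed as vehicle 1, vehicle 2, activin 1 and activin 2. The Nr1d2 first exon had densities of 12.6, 10.7, 15.4 and 13.9. The first exon of C030039L03Rik stood at 13.7, 12.5, 17.0 and 16.1 in the same order. Saysd1 had 7.29, 6.28, 9.05 and 9.23. In all 3 the activin pair exceeded the vehicle pair on this scale, as did the median region of every class.

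Angptl6, which encodes a secreted angiopoietin-like protein, had the highest −log10 q of any member at 75.7, in its exon 2 (chr9:20877751-20878724, 1491 bp from the start by the authors' distance). Densities of 13.6, 11.4, 12.95 and 13.8 put the treatments in the same range. Sptbn4 exon 33 (48.4) had 12.4, 10.9, 13.7 and 12.7. The last exon of Bcat2, a mitochondrial branched-chain aminotransferase gene (31.9, chr7:45588922-45589560), had 7.64, 7.50, 7.92 and 11.3. Exon 19 of 21 of Vcl, the gene of the adhesion protein vinculin (29.4, chr14:21028830-21029624), had 5.31, 4.60, 6.71 and 5.64 and lay 99.8 kb from the RefSeq start of Vcl. The 3 later-exon regions just inside the threshold were Adcy5, Maff and 1600010M07Rik (5.06, 5.06 and 5.03), and just outside were Tgfbr3, Gm13587 and Gm10706 (4.93, 4.88 and 4.86).

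Among gene ends the region at the Get1 start led with 48.1 (chr16:96145104-96145933), and had densities of 8.70, 8.87, 10.7 and 10.1. The end of Atg9b, an autophagy gene (35.6, chr5:24382988-24383927), had 8.54, 7.80, 9.37 and 7.54. The end of Sertad1, a small nuclear regulator of the cell cycle (28.03, chr7:27490539-27491332), had 14.1, 12.2, 16.6 and 15.0, and was the densest autosomal member after C030039L03Rik. Arhgef1, a guanine nucleotide exchange factor gene, followed (27.7, chr7:24903922-24905160) with 6.89, 6.06, 7.21 and 9.18. The region annotated to the end of Arhgef1 held an inner RefSeq start of the same gene. Mcoln1, Ccdc102a and Gm5535 lay just inside the threshold (5.02, 5.02 and 5.00), and ENSMUSG00000071478, Gm37886 and Adipoq just outside (4.95, 4.93 and 4.90).

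**Figure D2:**
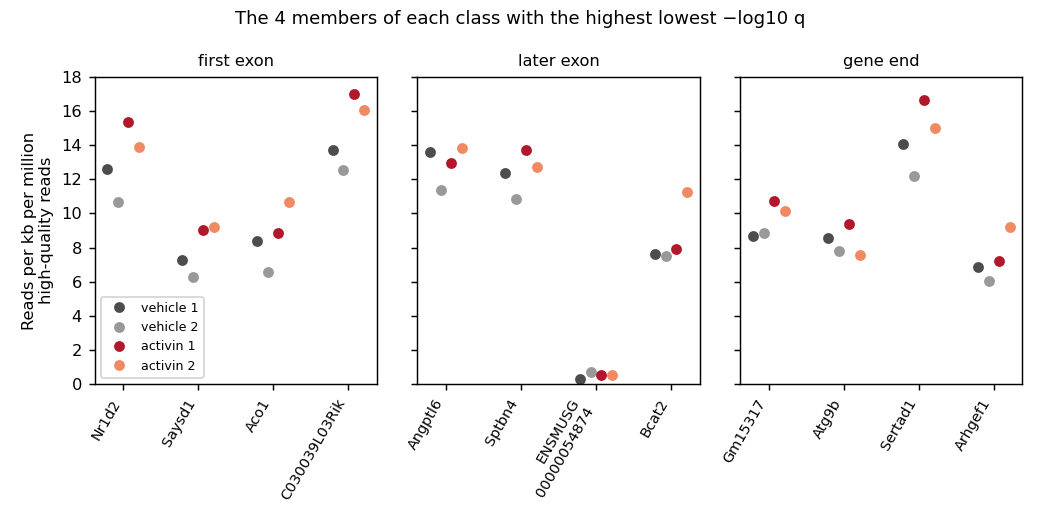
Read density (reads per kb per 1000000 high-quality reads) in each of the 4 libraries for the 4 members of each class with the highest lowest −log10 q. Most stand between 6 and 17, whereas ENSMUSG00000054874 lies near 0 in every library.

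A few strong regions held almost no high-quality reads. Exon 3 of ENSMUSG00000054874 (chr19:5686720-5687082) had a lowest −log10 q of 40.6 and a fold enrichment of 4.50 to 5.24 in the authors' lists, yet 18, 57, 41 and 32 reads in vehicle 1, vehicle 2, activin 1 and activin 2. The first exons of Slc25a37 (chr14:69284049-69285422) and Gm28049 (chr14:69502313-69503677), 2 regions of similar length on chromosome 14, had 0 reads in every library. In the interferon cluster on chromosome 4, the members Gm13288, Ifnz and ENSMUSG00000095101, had at most 25 reads in any library. In all, 24 of 1230 autosomal members (1.95%) had under 50 reads in some library and 14 had under 50 in every library. By class these were 7 first exons, 4 later exons and 13 gene ends, or 0.809%, 3.31% and 5.33%. The share was 0.444% in promoter regions, 8.89% in introns and 12.9% in intergenic regions. The deposited fold and the read count thus do not rank these members alike, and how their reads map was not tested.

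Median density was slightly below that of promoters in each class and library, except for later exons in vehicle 2. First-exon regions had median densities of 3.08, 2.68, 3.60 and 3.44. Later-exon regions had 3.45, 3.07, 3.77 and 3.62, gene ends 3.34, 2.99, 3.77 and 3.64, and promoters 3.56, 3.06, 4.10 and 3.92. Intron regions (2.91, 2.55, 3.27 and 3.14) and intergenic regions (2.83, 2.48, 3.15 and 3.01) were lower in each library. First exons, despite their higher −log10 q, were the least dense of the 3 member classes in each library, and they were also the longest, with a median merged length of 1128 bp against 948 bp for later exons and 1016 bp for gene ends. Within a class the spread between regions was wider than the differences between classes.

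**Figure D3:**
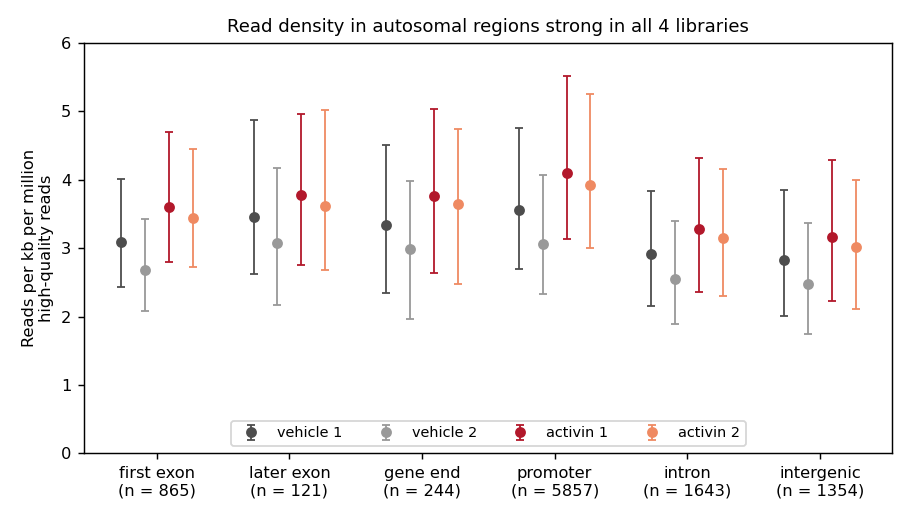
Median read density (points) and interquartile range (bars) over the autosomal regions of each annotation class, for the 4 libraries. Every class is lowest in vehicle 2 and highest in activin 1, and the ranges of the classes overlap.

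First exons and gene ends without a start site were the denser ones, and later exons with one were. First exons with no start inside or within 1 kb had median densities of 3.26, 2.88, 3.74 and 3.83, and those that held a RefSeq start 3.12, 2.67, 3.64 and 3.45. Gene ends with no start inside or within 1 kb had median densities of 3.63, 3.24, 4.06 and 3.92, and gene ends that held a RefSeq start 3.20, 2.88, 3.87 and 3.68. For later exons the order was the opposite, with 3.31, 3.05, 3.77 and 3.53 without a start and 4.11, 3.15, 4.33 and 3.82 with one, the latter over 23 regions.

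Of the 12 densest autosomal members, at 8.33 to 14.8 on average over the libraries, 4 lay between 27 and 28 Mb of chromosome 7. They were C030039L03Rik, the end of Sertad1, exon 33 of Sptbn4 and the first exon of Itpkc, an inositol trisphosphate kinase gene. This 1-Mb stretch held 9 members with a median density of 7.09, against 3.27 over all autosomal members. The authors' fold enrichment did not follow: at Sertad1 it was 2.63 to 3.14, beside medians of 3.59 to 4.25 over all members in the 4 libraries. Density divided by fold had a median of 2.37 in the 9 members and of 0.808 over all autosomal members, and it ranged from 0.256 (the end of Gm26891) to 4.86 (the end of Sertad1). The 15 promoter regions in the same stretch stood at 2.91, against 0.878 for all 5857 autosomal promoter regions, so the ratio was not particular to exons and gene ends.

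The same ratio also varied between whole chromosomes. Its median over members ran from 0.525 on chromosome 12 and 0.529 on chromosome 13 to 1.16 on chromosome 2 and 1.28 on chromosome 17. Promoter regions followed a similar order over the 19 autosomes (Spearman correlation 0.968, as a description, since both medians come from the same libraries). Density and fold therefore rank members on different chromosomes differently, and the source of this was not tested.

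**Figure D4:**
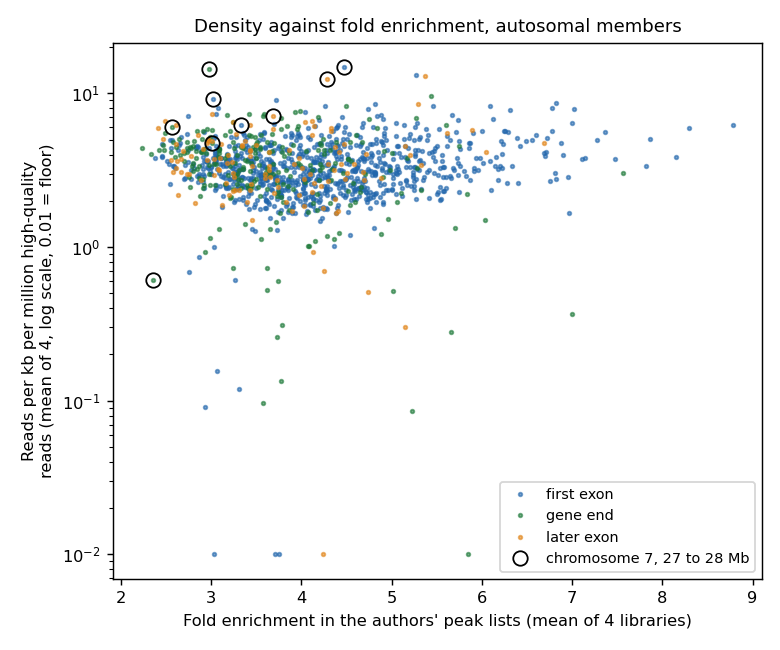
Mean read density (log scale) against the mean fold enrichment in the authors' lists for the 1230 autosomal members, coloured by class, with members between 27 and 28 Mb of chromosome 7 circled. Of the 9 circled members, 8 lie in the upper part of the cloud at folds under 5 and 1 below it, and members with almost no reads form the lower scatter.

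Gene families were counted by name prefix among the named hosts, beside 2.16% of all symbols in the RefSeq table that host a member. That table also holds small RNA genes and pseudogenes, whereas most hosts were protein coding. The 2.16% is thus not a like base for families of coding genes. Replication-dependent histone genes, which are intronless and supply histones in S phase, hosted 13 members out of 92 genes (14.1%), of which 11 lay on chromosome 13. Hist1h3e (chr13:23561719-23562677) led with a lowest −log10 q of 20.9 and densities of 1.52, 1.37, 2.00 and 1.76. All 13 had mean densities of 1.32 to 2.99, below the member median of 3.27, while the fold of Hist1h3e was 6.48 to 7.41. Symbols with zinc finger prefixes (such as Zfp, Zbtb and Klf) hosted 36 members out of 512 (7.03%), 30 of them first exons. Their count includes Zfp286it and Zfp335os, by their names transcripts at zinc finger genes rather than such genes. The highest by lowest −log10 q were the end of Zfp286it, exon 3 of Zfp771 and the first exon of Zfp91. Symbols with the solute carrier prefix Slc, which need not all encode carriers, hosted 22 members out of 384 (5.73%). They were led by Slc39a10, a zinc importer gene, with densities of 3.72, 3.46, 4.20 and 4.60, and include Slc25a37, which had no reads. Of 497 ribosomal protein symbols, which include pseudogenes, 1 was a host (Mrps28), and no protocadherin gene and no Snhg gene, the hosts of small nucleolar RNAs, was one.

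Homeobox and related developmental genes hosted 7 members in 6 of 160 genes (3.75%), and only 2 of the 7 were first exons, that of Sox12 among them. The others included the ends of Irx6 and Pax6, exon 7 of Lhx6 and the last exon of Six4. Sox12, a small SoxC gene, had a region of 3162 bp with densities of 6.58, 5.80, 8.27 and 7.66. Exon 7 of Lhx6 (chr2:36090975-36091808) had 4.53, 4.07, 5.13 and 4.78.

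Of a list of 37 genes of the activin and TGF-beta pathway, 3 hosted a member, each in the first exon. Smad4, the common mediator that joins the receptor-activated Smads (chr18:73703011-73704345), had 4.36, 4.20, 5.00 and 5.01. Bmpr2, a type II receptor gene (chr1:59762772-59764890), had 2.59, 2.42, 3.14 and 3.28. Smurf1, the gene of a ubiquitin ligase that targets Smads (chr5:144964835-144966311), had 3.43, 3.06, 3.57 and 3.43. Acvrl1, a type I receptor gene of the same family, was not on that list and is named after its values were seen. It hosted a gene-end region (chr15:101145456-101145788) with 4.07, 4.11, 5.67 and 5.60. Centred on each library's median region, its log2 change with activin was 0.16 per kb. On reads not divided by length it was −0.35, of the opposite sign. The limma test described below called it on neither scale. Among pituitary markers, Ghrhr, the somatotrope receptor for growth hormone-releasing hormone, hosted a gene-end region (chr6:55388236-55389261), at 3.40, 1.88, 4.11 and 3.56, although its start had no strong region in all 4 libraries.

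The longest members were the first exons of Rorb (4000 bp), Junb, an AP-1 gene (3659 bp), Zfp36l2 (3430 bp) and Scd2, a fatty acid desaturase gene (3423 bp), and the end of Gm14486 (3621 bp). The strong peaks at Junb measured 875, 1797, 3655 and 2836 bp in the 4 libraries while its density was 3.64, 3.15, 3.40 and 3.59. Its reads, 549, 1250, 2784 and 1813, thus followed the length of the peak. Over all members the median peak length was 797 and 861 bp with vehicle and 986 and 903 bp with activin.

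Whether activin changed the members was tested by limma on log2 density, centred on each library's median region, over all 8410 autosomal regions with 1 strong peak per library and a common part of at least 50%. These included 1048 members. No region passed an adjusted p of 0.05 (0% called), and so no member did. The lowest adjusted p was 0.0805 over all regions and 0.356 over members. At an unadjusted p under 0.05, 30 members were higher with activin (2.86%, against 3.13% of all regions tested) and 32 lower (3.05%, against 5.14%). The activin pair stood above the vehicle pair without overlap in 232 members (22.1%, against 21.4% of all regions) and below it in 180 (17.2%, against 19.0%). The median log2 change was 0.02 for first exons, −0.04 for later exons and −0.03 for gene ends. It was 0.01 for promoters, −0.03 for introns and −0.04 for intergenic regions. Scaled to all high-quality reads instead, 89 members were called, all higher (8.49% of those tested, against 7.85% of all regions), where the median region itself stood at 0.30 (log2). Without activin 1 limma called 3 members (0.286%, against 0.369% of all regions), and without activin 2 it called 0 (against 0.238%).

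The end of H3f3b (chr11:116020035-116021953) had the smallest p of all members. Vehicle densities of 2.69 and 2.74 stood against activin densities of 5.13 and 4.80, so the treatments did not overlap. The centred log2 change was 0.57 ± 0.11 (SE), with a limma adjusted p of 0.356. The reads were 763, 1090, 2080 and 1639 in peaks of 1645 to 1919 bp, and the authors' fold was 2.53, 2.72, 3.35 and 3.69. With reads not divided by length the change was 0.53 ± 0.09 and the adjusted p was 0.0218. The first exon of the same gene had 4.61, 4.27, 6.88 and 5.69, and a log2 change of 0.20 ± 0.10 (limma adjusted p = 0.636). No difference between these regions was tested.

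Higher with activin, and next by p, were the end of ENSMUSG00000054514 (log2 change 0.45), the first exons of Cpox, a gene of haem synthesis (0.36), and Lsm11, a component of histone mRNA processing (0.40), and the end of Rwdd2b (0.47), which holds the start of Ltn1, a ribosome quality-control ligase gene. Lower with activin, the smallest p-values were those of the ends of Ehmt2, the H3K9 methyltransferase G9a (−0.40), and Arid5a (−0.39), the last exon of Gpr107 (−0.38), exon 2 of Pla2g10, a secreted phospholipase gene (−0.39), and the first exon of 5031425F14Rik (−0.88, from 102 and 162 reads to 73 and 74). None passed the test by limma, with adjusted p-values of 0.459 to 0.498. Several larger changes had larger p-values and are named after their values were seen. The end of Ccdc186 had 41 and 43 reads under vehicle against 16 and 18 under activin (log2 change −1.19 ± 0.34, SE; limma adjusted p = 0.505). The end of Gm26891 stood at −1.07 with 44, 201, 149 and 14 reads, so its treatments overlapped, and the first exon of Gm7347 at 0.70 with 9, 4, 22 and 8.

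Dividing by peak length decided the sign for many members. On reads not divided by length, 472 of the 1048 members had the opposite sign of change. Without this division limma called 6 members at an adjusted p of 0.05 (0.573% of those tested, against 0.357% of all regions tested). H3f3b and Frmd8 gene ends rose, by 0.53 and 0.41. The ends of BC004004 (−1.52) and Arhgef1 (−0.39), exon 2 of H2-T23 (−0.58) and the first exon of Map3k10 (−0.43) fell. Per kb, BC004004 stood at −0.83 ± 0.25 (SE; limma adjusted p = 0.505), while Frmd8 stood at −0.10, H2-T23 at 0.13, Arhgef1 at 0.04 and Map3k10 at −0.02. Peaks differed in length between treatments, with 1361 and 1395 bp for vehicle against 2090 and 2315 bp for activin at Frmd8, and 1866 and 1962 bp against 1394 and 1219 bp at H2-T23. Of the 6, H3f3b had peaks of like length in both treatments.

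**Figure D5:**
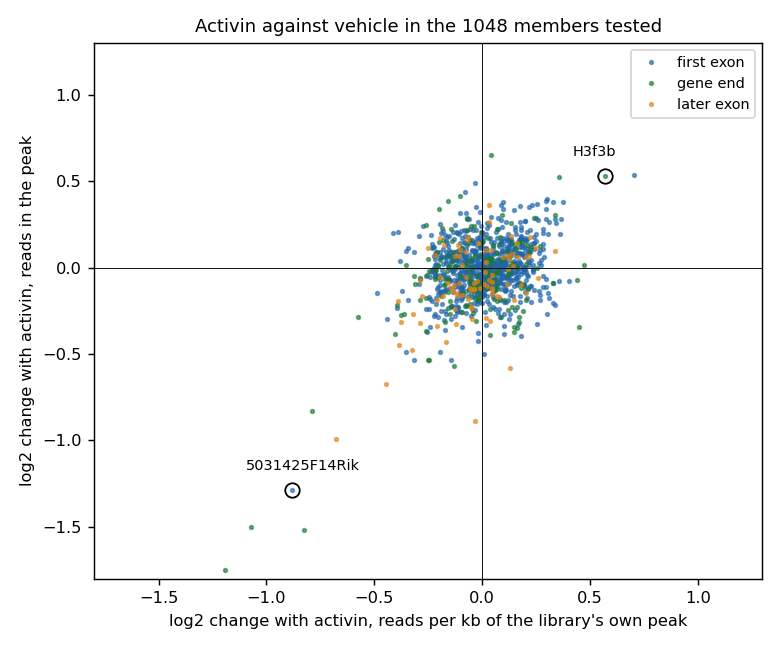
Centred log2 change with activin in the 1048 members tested, per kb of each strong peak (horizontal) and on reads in the peak (vertical). The points scatter over all 4 quadrants, and the H3f3b gene end and the first exon of 5031425F14Rik keep their sign on both scales.

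Members of the gene lists did not pass the test either. Of 13 histone regions tested, 0 passed, 1 had an unadjusted limma p under 0.05 (higher), and the median log2 change was 0.08. Of 32 regions under zinc finger prefixes 3 had one (higher), with a median of 0.03. Of 22 regions under the Slc prefix and 6 homeobox regions none had one. The Smad4, Bmpr2 and Smurf1 first exons had changes of −0.07, 0.06 and −0.19 (limma adjusted p of 0.847, 0.904 and 0.650). Of the 30 gene ends annotated to microRNA genes, 7 of them with a Mir name, 20 were tested. Their changes were −0.25 to 0.36 with a median of 0.08, and none had an unadjusted limma p under 0.05.

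Exon and gene-end annotation covered 11.7% and 12.1% of a vehicle library's strong peaks, against 11.4% and 11.8% under activin, so the treatments overlapped (11.9% ± 0.300 and 11.6% ± 0.291, SD, n = 2). These shares rest on the −log10 q and annotation that chose the members and are given without a test. For exons and gene ends taken apart the treatments did not overlap at this threshold. Exon peaks alone made up 9.23% and 9.67% under vehicle against 8.33% and 8.99% under activin, and TTS peaks 2.47% and 2.46% against 3.07% and 2.82%. At a −log10 q of 10 the exon shares overlapped (9.49% and 10.6% against 9.77% and 9.84%). The TTS shares there did not (1.83% and 1.93% against 2.53% and 2.21%). Over all called peaks the exon shares overlapped (5.73% and 5.03% against 5.07% and 5.22%). The TTS shares were then lower under activin (3.34% and 3.30% against 3.29% and 3.14%). The activin libraries also held more strong peaks, 19819 and 15807 against 12377 and 12760, and the part of that number in these shares was not tested.

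Relative to promoters, the members' median density stood at −0.18, −0.15, −0.18 and −0.18 (log2) (exact permutation p = 1.0, 2-sided, n = 2). For later exons alone it was −0.043 and 0.0033 in vehicle against −0.12 and −0.12 in activin, and for gene ends −0.09 and −0.03 against −0.12 and −0.11. For first exons it was −0.21 and −0.19 against −0.19 and −0.19, a difference of 0.010 in the other direction. The libraries of the treatments did not overlap in any of the 3 classes, each at an exact permutation p of 0.3333, 2-sided, the smallest that 2 against 2 libraries allow. Nor was a fall against promoters particular to later exons and gene ends. In the limma fit their median changes of −0.04 and −0.03 stood beside −0.03 for introns and −0.04 for intergenic regions, with promoters at 0.01.

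Of exon and gene-end regions, 268 more were strong in exactly 3 libraries, and 263 of them had a weaker called peak in the fourth. The library that missed was vehicle 1 in 104 and vehicle 2 in 156, and an activin library in 8. The vehicle libraries also had fewer strong peaks in all. Over every annotation, regions strong in all libraries kept rose from 10390 to 11355 without vehicle 1 and 11637 without vehicle 2. Without activin 1 they numbered 10435 and without activin 2 10558, so this skew was not particular to exons and gene ends.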

How the data were processed

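ATAC-seq libraries of LβT2b cells (2 vehicle, 2 activin) were processed by the authors with Bowtie2, MACS2 and HOMER on GRCm38/mm10, per the submitters' processing notes, which give no versions or settings. Peaks were called per library. The deposited peak lists hold, per peak, a score, a fold enrichment over the caller's background (a ratio), and the −log10 of the p-value and q-value. The authors' annotation by HOMER gives the feature and a distance to a start site, and their quality report (ataqv 1.3.1, per the file headers) gives high-quality reads per autosomal peak. X and Y members have no read value. Wells were seeded with 350000 cells and reactions used 50000, per the labels.

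From these files, strong peaks were merged as described and positions counted from 1. Density divides a library's reads by the length of its strong peak. For the treatment test, log2((reads + 1) per kb) was centred on the median region of its library and fitted with limma 3.58.1 (trend, no block; R 4.3.3). Adjustment was by Benjamini-Hochberg at 0.05. The pseudocount draws changes of regions with few reads towards values set by the centring and the peak lengths, which need not be near no change. The first exon of Gm28049, with no reads in any library, stood at −0.36 per kb and −0.49 on reads not divided by length. The last exon of Gm26905 stood at −0.68 per kb (log2) with 1, 0, 0 and 0 reads. No count model was used, since peak intervals differ between libraries. The fit over the 8410 regions was tested on simulated data, with a spread taken from these same libraries. Of 200 regions changed by 1 (log2) it called 189, beside 11 unchanged regions, and with no region changed it called 0. Smaller changes, such as most of those named here, were not simulated. Single values per library were compared by exact permutation. Of the 1273 members, 1048 entered the test, 182 autosomal members did not meet its layout and 43 lay on X or Y.

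Start windows and microRNAs came from RefSeq tables of GRCm38.p6, which are not complete. Of 1221 named hosts, 1080 matched a RefSeq symbol. Named members were the 5 highest and 3 lowest per class by lowest −log10 q, the 3 just outside, the 5 farthest and 5 longest, hosts with several members, up to 3 per gene list, and the 5 smallest p in each direction. The densest members, those with few reads, the microRNA ends, the start-window letters, the chromosome medians, Acvrl1 and the largest changes were added after their values were seen. Members and lists were chosen with earlier results of these data known. Alternatives covered the threshold, merging, scaling, length, pseudocount, read minimum, common part, replicate block and each library left out. Sequences of the regions themselves were not used here. Some members that the naming rule selects are not reported here.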

Additional observations from a re-analysis of the deposited data

How the results depend on the processing

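The number of members was 608 at a −log10 q of 10, 1772 at 3, 752 when every library had to be annotated exon or TTS, 1273 when peaks up to 100 bp apart were joined, and 1279 to 1427 when 1 library was left out (1381 without vehicle 1 and 1427 without vehicle 2). The number of members called by limma was 0, and 6 with reads not divided by length (0.573% of members tested, against 0.357% of all regions). It was 89, all higher (8.49%, against 7.85% of all regions), when scaled to all high-quality reads, where the median region itself stood at 0.30 (log2) with activin. It was 0 to 3 with 1 library left out (3 without activin 1, where the lone activin library is assumed to vary like the vehicle pair). It was 1 (H3f3b) with reads not divided by length in regions with a common part of at least 80%, a setting chosen after seeing the data. The other planned settings called 0 members, as did the fit with the replicate block. The labels do not say that replicate numbers pair the libraries, and deviations of same-numbered libraries had a correlation of −0.063, so the numbers were not taken as pairs. The exon and TTS share differed by −0.320 percentage points, by 0.256 at a −log10 q of 10, and by −0.533 to −0.108 with 1 library left out. The density relative to promoters differed by −0.012 (log2), by 0.012 with reads not divided by length and also in regions of the tested layout, and by −0.028 to 0.0037 with 1 library left out. The signs of ENSMUSG00000054514 (−0.34) and Lsm11 (−0.077) turned with reads not divided by length, and the cause was not tested. For the 10 regions named for their p, 94 of 104 alternative values kept direction and side of the threshold. With reads not divided by length Rwdd2b nevertheless stood at 0.013, Arid5a at −0.21 and Pla2g10 at −0.19. In all, 13 of the 104 kept direction but moved by over 1.5 times, the other 10 of them when scaled to all high-quality reads. With 2 libraries a treatment, and reads that are not independent molecules, small changes could not be resolved.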
